A study of Homo sapiens with 16 samples.

Results

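The insulin-like growth factor 2 gene IGF2, its imprinted neighbour H19, the receptors IGF1R and IGF2R, the binding proteins IGFBP2, IGFBP3, IGFBP4 and IGFBP6, and the mRNA-binding proteins IGF2BP1 and IGF2BP3 were followed across NCI-H1299 cells with and without the p53 Y220C mutant. These 10 genes, of 56865 in the annotation, were taken from a list of IGF axis genes and were selected on their read counts in the 4 groups, with the large difference of IGF2 between the lines in view. The levels in the lines are therefore described without a test, and the response to MS78 was tested. Of the 10 genes, 9 passed the filter on low counts and H19 did not.

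Poly(A) RNA of 16 libraries was measured in 4 groups of 4. The groups are p53-Y220C cells with 10 µM MS78, p53-Y220C cells with vehicle (DMSO), p53-null cells with 10 µM MS78 and p53-null cells with DMSO, each for 24 h, and are called Y220C MS78, Y220C DMSO, Null MS78 and Null DMSO. NCI-H1299 is an established line of human lung cancer (non-small cell type) without p53, and the p53-Y220C cells are NCI-H1299 with a stably expressed mutant. MS78 is a heterobifunctional molecule that links p53 Y220C to p300/CBP, a pair of acetyltransferases. Per the labels, the p53-Y220C cells were kept in 500 µg/mL G418 and the p53-null cells were not, and the labels name neither the promoter of the transgene nor whether the line is 1 clone. Line, G418 and transgene therefore cannot be told apart. Whether the replicates were separate cultures is not stated, so the p-values rest on a spread between samples that may be technical. In bulk RNA, fewer cells that express a gene and less RNA per cell cannot be told apart.

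IGF2 is a secreted growth factor of fetal and tumour tissue that signals through the tyrosine kinase IGF1R and through the insulin receptor INSR. IGF2R, the cation-independent mannose 6-phosphate receptor, takes IGF2 to lysosomes and also carries lysosomal enzymes. The IGFBP proteins hold IGFs outside the cell and are cut by proteases that set the growth factor free. IGF2 and H19 are reciprocally imprinted: a CTCF-bound control region between them lets the paternal copy express IGF2 and the maternal copy express H19. IGF2BP1 and IGF2BP3 are oncofetal proteins named for their binding to IGF2 mRNA, which also stabilise other mRNAs such as MYC.

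Libraries held 20.3 M to 27.7 M estimated reads. CPM are counts per 1000000 reads, scaled by TMM. Of 13 epithelial and lung carcinoma markers, the keratins KRT8 and KRT18 and the mesenchymal gene VIM were abundant. The other epithelial markers EPCAM, CDH1, KRT19 and KRT7 had 3 to 59 reads per library and the lung lineage markers SFTPB and NKX2-1 had 0 to 7, so the epithelial label rests on the 2 keratins. The pan-leukocyte gene PTPRC had 55 to 99 reads in 8 libraries, which were replicates 2, 3 and 4 with MS78 and replicate 1 with DMSO in either line, against 0 to 1 in the other 8. The 18 leukocyte markers summed to 115 to 206 CPM in those 8 libraries and to 57.9 to 93.3 CPM in the rest, where CD2, CD3E and MS4A1 were at 0. CD68, a lysosomal gene on that list, had 1237 to 2625 reads in every library, so the sum is far from 0 also where PTPRC is not. These libraries are unevenly spread over MS78 and DMSO: within either set, each line has an arm of 1 library, and its p-value assumes that this library varies like the other groups. Values within each set are given with that limit where they change a call, and the part of such cells in the other results was not tested.

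The promoters below are shown for IGF2R, which rose with MS78 in both lines, and for IGF2BP3 and IGFBP4. Of the 4 members called lower with MS78 in p53-Y220C cells, IGF2BP3 and IGFBP4 are the ones whose windows hold a motif marked below. The windows of IGFBP2 and IGFBP6, also called lower there, hold neither motif. The shares of promoters that hold a motif are given after this choice, and nothing is read from them. RefSeq (GRCh38.p14) gave 250 bases before to 50 after the start of 8 of the 10 genes, and IGF2 and IGF2BP1 are named only. Capitals mark CACGTG, the E-box hexamer, in the first pair and TATAAA, the TATA box hexamer, in the third. The windows lie at chr6:159968832-159969131 on the plus strand, chr7:23470442-23470741 on the minus strand and chr17:40443200-40443499 on the plus strand.
IGF2R: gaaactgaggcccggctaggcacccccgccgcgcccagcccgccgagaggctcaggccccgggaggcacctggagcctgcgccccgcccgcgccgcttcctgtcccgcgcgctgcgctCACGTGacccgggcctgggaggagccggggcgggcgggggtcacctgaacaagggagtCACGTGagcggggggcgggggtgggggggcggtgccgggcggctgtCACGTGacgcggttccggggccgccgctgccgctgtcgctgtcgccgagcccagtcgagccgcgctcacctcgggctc
IGF2BP3: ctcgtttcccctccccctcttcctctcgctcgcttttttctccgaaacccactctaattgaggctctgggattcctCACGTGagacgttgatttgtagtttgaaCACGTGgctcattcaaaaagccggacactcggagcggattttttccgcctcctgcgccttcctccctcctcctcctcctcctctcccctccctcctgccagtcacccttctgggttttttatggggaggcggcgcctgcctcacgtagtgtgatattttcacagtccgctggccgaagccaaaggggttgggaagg
IGFBP4: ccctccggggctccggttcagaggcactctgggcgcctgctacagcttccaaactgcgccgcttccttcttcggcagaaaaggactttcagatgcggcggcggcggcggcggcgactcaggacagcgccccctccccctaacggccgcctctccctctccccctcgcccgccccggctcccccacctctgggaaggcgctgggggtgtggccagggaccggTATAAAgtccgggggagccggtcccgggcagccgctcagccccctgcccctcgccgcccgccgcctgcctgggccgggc
CACGTG begins 132, 74 and 28 bases before the RefSeq start of IGF2R, which lies 17 bases from the start of its main transcript in GENCODE 29. Both strands were searched, CACGTG reads the same on both, and 33 of 35116 promoters (0.0940%) hold at least 3 of it. The IGF2BP3 window holds it 174 and 146 bases before the start, and 233 of 35116 promoters (0.664%) hold at least 2. TATAAA begins 29 bases before the start of IGFBP4 and is found in 11.5% of promoters. None of the windows of the other members with a promoter held CACGTG or TATAAA.

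Per length, the order of the genes differed between the lines. TPM values, which are divided by transcript length so that different genes can be compared, put IGF2R first in Y220C MS78 at 44.3 ± 2.46 TPM, followed by IGF2BP1 at 34.5 ± 1.78 TPM and IGF2BP3 at 32.6 ± 3.79 TPM (SD, n = 4), with the last pair overlapping. In Y220C DMSO, IGF2BP3 (39.1 ± 4.71 TPM), IGF2BP1 (38.2 ± 3.46 TPM) and IGF2R (32.6 ± 1.88 TPM) overlapped in that order, and IGF2 stood ninth in both p53-Y220C groups. In Null MS78, IGF2 was first at 57.0 ± 3.46 TPM, above IGF2R at 42.3 ± 1.19 TPM, IGF2BP3 at 32.6 ± 1.21 TPM and IGF2BP1 at 29.3 ± 1.43 TPM, and none of these neighbours overlapped. In Null DMSO, IGF2 was first at 48.8 ± 3.39 TPM, above IGF2BP1 at 37.1 ± 0.951 TPM and the overlapping pair IGF2BP3 and IGF2R. These TPM are sums over transcripts, and short transcripts with few reads add to them. In Y220C MS78, IGF2R-203 (762 bases) gave 9.11 TPM on 0.76% of IGF2R reads, and IGF2R-201 alone had 35.2 ± 2.54 TPM. In Null DMSO, IGF2-206 (934 bases) gave 11.2 TPM on 3.89% of IGF2 reads. The order without such transcripts was not tested. The receptor IGF1R had group means of 2.93 to 3.86 TPM in the 4 groups, far under IGF2R in each of them. Of the binding proteins, IGFBP2 was highest in Y220C MS78 (11.1 ± 1.82 TPM) and Y220C DMSO (15.1 ± 2.26 TPM), and IGFBP6 in Null MS78 (4.68 ± 0.434 TPM) and Null DMSO (6.29 ± 0.953 TPM), none of them overlapping with the next gene in the order.

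**Figure D1:**
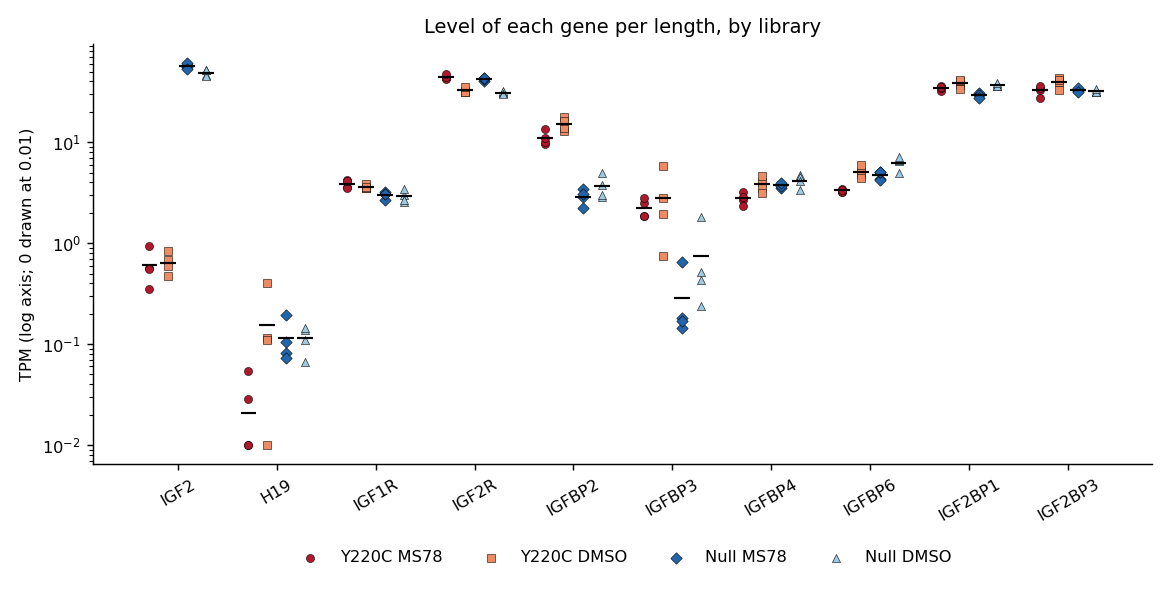
TPM of the 10 genes on a log axis, 1 point per library and a line at the mean of 4 libraries, with the 4 groups side by side and values of 0 drawn at 0.01. IGF2 is the highest of the genes in both p53-null groups and lies under 1 TPM in every p53-Y220C library.

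IGF2 mRNA was abundant in p53-null cells and almost lost in p53-Y220C cells. IGF2 (ENSG00000167244, chr11:2129112-2149603 on the minus strand, GRCh38) had 2.50, 2.19, 2.03 and 1.27 CPM in Y220C MS78, and 1.89, 2.41, 2.11 and 1.64 CPM in Y220C DMSO. It had 150, 169, 175 and 159 CPM in Null MS78, and 131, 133, 143 and 138 CPM in Null DMSO. Every p53-Y220C library lay far under every p53-null library, with 25 to 51 reads against 3057 to 4690 reads. The level in p53-Y220C cells was 81.2-fold lower under MS78 (log2 fold change -6.34, SE 0.10) and 68.0-fold lower under DMSO (log2 fold change -6.09, SE 0.09) than in p53-null cells, a description since the gene was chosen for it.

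MS78 raised IGF2 in p53-null cells, where all 4 MS78 libraries lay above all 4 DMSO libraries. IGF2 averaged 163 ± 10.8 CPM in Null MS78 and 137 ± 5.53 CPM in Null DMSO (SD, n = 4 each). The log2 fold change was 0.26 (SE 0.06, adjusted p = 0.00149, edgeR quasi-likelihood test). The call was lost with length-scaled TPM, where the log2 fold change was also 0.26 (adjusted p = 0.0850), and within the libraries without PTPRC reads, which hold 1 MS78 library (log2 fold change 0.12, adjusted p = 0.541). In p53-Y220C cells the log2 fold change of IGF2 was 0.00 (SE 0.18, adjusted p = 1.00), and on so few reads the response there is known only within that error. The difference between the lines' responses was -0.26 on the log2 scale (SE 0.19, adjusted p = 0.359).

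In p53-null cells, nearly all IGF2 reads were given to transcripts from 3 start positions. Human IGF2 has several promoters, used at different stages and in different tissues. Transcripts IGF2-202, IGF2-203 and IGF2-206, which start at chr11:2137287-2137305, held 75.2 ± 1.76% of IGF2 reads in Null MS78 and 71.4 ± 0.543% in Null DMSO (SD, n = 4 each), and the ranges did not overlap. IGF2-204, which starts 1687 bases upstream, held 7.62% to 11.9% in Null MS78 and 12.1% to 18.8% in Null DMSO, again without overlap. IGF2-205, 2102 bases upstream of the first, held 15.1 ± 0.759% in Null MS78 and 12.6 ± 2.76% in Null DMSO, with overlap. These shares are estimates over transcripts that share most of their sequence and were not tested. By share of TPM, IGF2-204 did overlap, with 5.04% to 8.65% in Null MS78 and 8.31% to 13.9% in Null DMSO. The first cluster then held 83.0% in Null MS78 and 80.2% in Null DMSO, still without overlap. In p53-Y220C libraries the first cluster held 62.0% to 100% under MS78 and 68.6% to 100% under DMSO, on 22 to 50 reads. The INS-IGF2 readthrough gene had 0 reads in all 16 libraries.

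**Figure D2:**
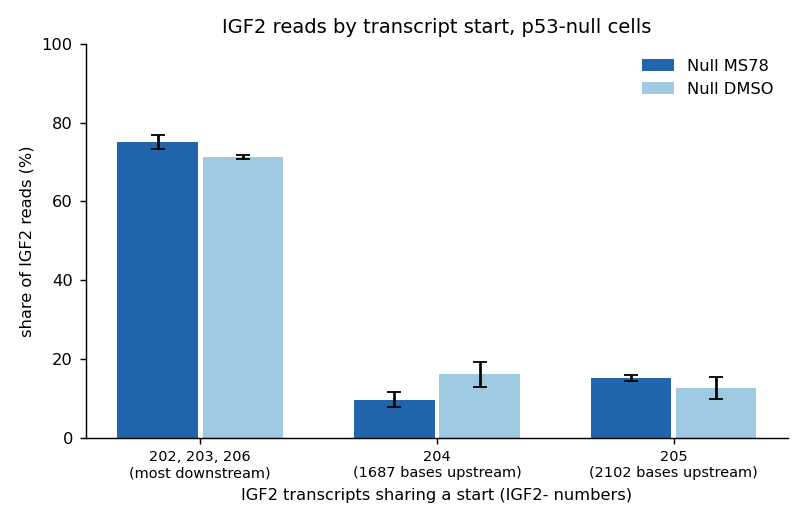
Share of IGF2 reads (percent) by transcript start in p53-null cells, bars at the mean and error bars of 1 SD over 4 libraries, with starts ordered from the most downstream. The most downstream start carries 75.2% in Null MS78 and 71.4% in Null DMSO.

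H19, the imprinted non-coding RNA next to IGF2 (ENSG00000130600, chr11:1995176-2001470 on the minus strand), had 0 to 1 reads in Y220C MS78, 0 to 2 in Y220C DMSO, 1 to 3 in Null MS78 and 2 to 5 in Null DMSO. These are counts near the limit that a count of 0 allows (3 reads), so no fold is given. IGF2-AS, which overlaps IGF2 on the other strand, had 0 reads in every p53-Y220C library, 2 to 15 reads in Null MS78 and 4 to 8 reads in Null DMSO. Whether the counting used strand is not given in the sources used here. The lowest of these counts, 2 reads in Null MS78, is within the 3 reads that a count of 0 allows. The antisense gene (chr11:2140501-2148666) does not reach the 3 IGF2 starts that hold nearly all reads. The IGF2 transcripts that start within it, IGF2-201 and IGF2-207, had 0 to 3 reads in each p53-null library and 0 in each p53-Y220C library. Whether reads given to IGF2-AS came from IGF2 transcripts was not tested.

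Among the genes within 500 kb of IGF2, no tested gene had a line difference like that of IGF2. The window holds 48 other genes, of which 7 were tested, and their log2 fold changes of p53-Y220C over p53-null cells under DMSO lay between -0.20 and 0.82. CTSD, a lysosomal protease that lies 365 kb from IGF2, had 237 CPM in Y220C DMSO and 220 CPM in Null DMSO (log2 fold change 0.11, SE 0.03). CD81, a tetraspanin 227 kb away on the other side, had 92.6 CPM in Y220C DMSO and 107 CPM in Null DMSO (log2 fold change -0.20, SE 0.04). MS78 raised CTSD in p53-Y220C cells (log2 fold change 0.40, SE 0.03, adjusted p = 5.44e-09, edgeR) and in p53-null cells (0.22, SE 0.03, adjusted p = 6.51e-05). It raised CD81 in p53-null cells (0.18, SE 0.04, adjusted p = 0.00332), while in p53-Y220C cells the log2 fold change was 0.02 (adjusted p = 0.792). MRPL23, a mitochondrial ribosomal protein gene 145 kb from IGF2, fell in p53-Y220C cells (-0.24, SE 0.06, adjusted p = 0.00416), and in p53-null cells the value was 0.03 (adjusted p = 0.761). Its difference of responses was -0.27 (adjusted p = 0.0284). The other tested neighbours, IFITM10, LSP1, TSSC4 and KCNQ1OT1, had no called MS78 response. Of these, LSP1 had large values with large errors on 2 to 123 reads per library. Its log2 fold change was 2.13 in p53-Y220C cells (SE 0.89, adjusted p = 0.0537) and 2.23 in p53-null cells (SE 0.88, adjusted p = 0.0678, edgeR).

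By Pearson correlation, 5 genes were nearly equally like IGF2 over the 16 libraries. IRS1, the docking protein that carries the signal of IGF1R and INSR, was first of them by a small margin. Over 12228 protein-coding genes with a mean of at least 1 CPM, the 5 highest Pearson correlations of log2 CPM with IGF2 were those of IRS1 (0.996), ATP6V0E2 (0.995), RNF182 (0.994), FBXO2 (0.994) and STAT6 (0.994). IRS1 averaged 40.6 ± 1.15 CPM in Y220C MS78, 42.4 ± 0.952 CPM in Y220C DMSO, 98.2 ± 1.83 CPM in Null MS78 and 94.7 ± 3.21 CPM in Null DMSO (SD, n = 4 each). The 16 points form 2 clusters, the lines, so these values describe a shared line difference, and by rank the correlations of the 5 genes were 0.803 to 0.894. None of the 5 was among the 5 highest by rank.

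The receptor IGF2R, which takes IGF2 to lysosomes, rose with MS78 in both lines by nearly the same amount. IGF2R (ENSG00000197081, chr6:159969099-160113507) had 407, 419, 423 and 448 CPM in Y220C MS78, and 313, 317, 327 and 337 CPM in Y220C DMSO. It had 382, 400, 381 and 379 CPM in Null MS78, and 295, 292, 294 and 288 CPM in Null DMSO. In each line the lowest MS78 library lay above the highest DMSO library. The log2 fold change was 0.39 in p53-Y220C cells (SE 0.03, adjusted p = 8.63e-09) and 0.40 in p53-null cells (SE 0.03, adjusted p = 1.37e-08), both by edgeR. Over the alternatives its adjusted p reached at most 0.00426 in p53-Y220C cells and 0.00261 in p53-null cells. Its log2 fold change was 0.47 and 0.38 in p53-Y220C and p53-null cells within the libraries with PTPRC reads, where DMSO is 1 library per line, and 0.32 and 0.39 within those without, where MS78 is 1 library per line. The difference of these responses was -0.01 (SE 0.05, adjusted p = 0.932). Nearly all its reads, 99.2% to 99.5% in group means, came from the transcript IGF2R-201, whose promoter is printed above. Between the lines, IGF2R was higher in p53-Y220C cells by 0.14 on the log2 scale under MS78 and by 0.15 under DMSO, without overlap. These became 0.0635 under MS78 with library totals as the only scaling and 0.0716 under DMSO within the libraries with PTPRC reads.

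The signalling receptor IGF1R (ENSG00000140443, chr15:98648539-98964530) had no called response to MS78. It had 36.1, 36.2, 35.6 and 39.7 CPM in Y220C MS78, and 34.3, 34.5, 37.0 and 34.7 CPM in Y220C DMSO. It had 25.6, 29.9, 28.9 and 29.7 CPM in Null MS78, and 23.8, 26.1, 28.0 and 25.2 CPM in Null DMSO. All p53-Y220C libraries were above all p53-null libraries, and MS78 and DMSO overlapped in both lines. The MS78 response was 0.07 in p53-Y220C cells (SE 0.06, adjusted p = 0.314) and 0.15 in p53-null cells (SE 0.06, adjusted p = 0.0710, edgeR log2 fold changes). In p53-null cells it passed within the libraries with PTPRC reads (adjusted p = 0.0301), where Null DMSO replicate 1, the lowest of its group, is the only DMSO library, without Null DMSO replicate 3 (0.0336) and without Null MS78 replicate 1 (0.0152). The other receptor for IGF2, INSR, had 11.6 ± 0.688 CPM in Y220C MS78, 11.9 ± 0.774 CPM in Y220C DMSO, 17.9 ± 0.727 CPM in Null MS78 and 16.7 ± 1.18 CPM in Null DMSO, with no called MS78 response.

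IGFBP2 was the one binding protein of the 4 that differed between the lines without overlap in both treatments. IGFBP2 (ENSG00000115457, chr2:216632828-216664436), a binding protein that prefers IGF2, had 8.15, 8.32, 7.51 and 7.51 CPM in Y220C MS78, and 9.17, 12.4, 9.06 and 8.80 CPM in Y220C DMSO. It had 2.06, 2.02, 2.11 and 2.09 CPM in Null MS78, and 2.02, 2.16, 3.23 and 1.96 CPM in Null DMSO. Every p53-Y220C library was above every p53-null library, by 3.80-fold in the MS78 groups and 4.21-fold in the DMSO groups. MS78 lowered it in p53-Y220C cells (log2 fold change -0.32, SE 0.13, adjusted p = 0.0397, edgeR), and in p53-null cells the value was -0.18 (SE 0.16, adjusted p = 0.472). The call in p53-Y220C cells was lost without Y220C DMSO replicate 2, where the value was -0.19 (adjusted p = 0.196). It was also lost without any 1 of the Y220C MS78 libraries (adjusted p = 0.0507 to 0.0914), when PTPRC reads were a term of the fit (0.115), with length-scaled TPM (0.0678), and within the libraries with (0.282) or without (0.439) PTPRC reads.

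IGFBP6 (ENSG00000167779, chr12:53097436-53102345), the binding protein with the strongest preference for IGF2, had the largest called decrease with MS78 among these genes. It had 2.16, 2.19, 2.40 and 2.18 CPM in Y220C MS78, and 3.26, 3.43, 2.96 and 4.00 CPM in Y220C DMSO. It had 2.88, 2.88, 3.40 and 3.44 CPM in Null MS78, and 4.12, 4.36, 4.27 and 3.22 CPM in Null DMSO. The groups did not overlap in p53-Y220C cells and did in p53-null cells, where Null DMSO replicate 4 lay among the MS78 libraries. The log2 fold change was -0.61 in p53-Y220C cells (SE 0.14, adjusted p = 0.00110) and -0.34 in p53-null cells (SE 0.13, adjusted p = 0.0547), both by edgeR. The decrease in p53-Y220C cells was -0.52 within the libraries with PTPRC reads (adjusted p = 0.111) and -0.68 within those without (adjusted p = 0.113). In p53-null cells it passed without Null DMSO replicate 4 (adjusted p = 0.0155), without Y220C DMSO replicate 4 (0.0492) and with library totals as the only scaling (0.0296). The difference of the responses was -0.27 (SE 0.19, adjusted p = 0.328).

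IGFBP4 (ENSG00000141753, chr17:40443461-40457731), a binding protein cut by the protease PAPPA, fell in p53-Y220C cells. It had 5.40, 4.33, 4.64 and 3.60 CPM in Y220C MS78, and 6.34, 7.43, 5.40 and 4.80 CPM in Y220C DMSO. It had 5.44, 5.83, 5.59 and 6.16 CPM in Null MS78, and 6.99, 6.81, 6.21 and 5.06 CPM in Null DMSO. MS78 and DMSO libraries overlapped in both lines. The log2 fold change was -0.41 in p53-Y220C cells (SE 0.14, adjusted p = 0.0214) and -0.12 in p53-null cells (SE 0.13, adjusted p = 0.557), both by edgeR. The call was lost without Y220C DMSO replicate 1 (adjusted p = 0.0515) or 2 (0.0963), without Y220C MS78 replicate 2 (0.0510) or 4 (0.0833), and within the libraries without PTPRC reads (log2 fold change -0.12, adjusted p = 0.791).

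IGFBP3 (ENSG00000146674, chr7:45912245-45921874), the main IGF carrier of serum and a known p53 target, varied widely between replicates. It had 3.04, 3.99, 3.13 and 3.86 CPM in Y220C MS78, and 2.91, 1.26, 8.22 and 3.96 CPM in Y220C DMSO. It had 0.233, 0.288, 0.290 and 1.07 CPM in Null MS78, and 2.70, 0.388, 0.733 and 0.824 CPM in Null DMSO. The lines did not overlap under MS78 but did under DMSO, where the log2 fold change of p53-Y220C over p53-null cells was 1.81 (SE 0.51) in the whole fit, 0.10 in the pair of libraries with PTPRC reads and 2.77 in those without. No MS78 response was called: the log2 fold change was -0.22 in p53-Y220C cells (SE 0.46, adjusted p = 0.724) and -1.36 in p53-null cells (SE 0.63, adjusted p = 0.123, edgeR). In p53-null cells the value was -0.54 without Null DMSO replicate 1, the highest of its group (adjusted p = 0.602), and -2.38 within the libraries with PTPRC reads (adjusted p = 0.00225), where that replicate is the only DMSO library. It also passed without Null MS78 replicate 4 (-2.08, adjusted p = 0.0377) and with no filter on low counts (adjusted p = 0.00160). The difference of the IGFBP3 responses was 1.14 on the log2 scale (SE 0.79, adjusted p = 0.311, edgeR). Within the libraries with PTPRC reads, where DMSO is 1 library per line, this difference was 2.72, and the call changed.

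The mRNA-binding protein IGF2BP1 fell with MS78 in p53-null cells. IGF2BP1 (ENSG00000159217, chr17:48997412-49055650) had 217, 236, 229 and 219 CPM in Y220C MS78, and 231, 225, 255 and 259 CPM in Y220C DMSO. It had 193, 192, 175 and 172 CPM in Null MS78, and 227, 226, 217 and 236 CPM in Null DMSO. All Null MS78 libraries lay under all Null DMSO libraries, and the p53-Y220C groups overlapped. The log2 fold change was -0.11 in p53-Y220C cells (SE 0.05, adjusted p = 0.0792) and -0.31 in p53-null cells (SE 0.05, adjusted p = 6.85e-05), both by edgeR. The fall in p53-null cells did not pass within the libraries without PTPRC reads (adjusted p = 0.158). In p53-Y220C cells it passed with library totals (adjusted p = 0.00250), with no filter (0.0390), and without Y220C DMSO replicate 1 (0.0496) or 2 (0.0242).

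IGF2BP3 fell with MS78 in p53-Y220C cells. IGF2BP3 (ENSG00000136231, chr7:23310209-23470467) had 86.0, 97.9, 99.9 and 98.2 CPM in Y220C MS78, and 116, 99.8, 122 and 117 CPM in Y220C DMSO. It had 97.3, 94.9, 92.0 and 94.0 CPM in Null MS78, and 89.7, 91.9, 89.3 and 95.7 CPM in Null DMSO. In p53-Y220C cells 1 DMSO library, replicate 2, lay within the range of the MS78 libraries. The log2 fold change was -0.25 in p53-Y220C cells (SE 0.05, adjusted p = 6.92e-04) and 0.04 in p53-null cells (SE 0.05, adjusted p = 0.601), both by edgeR. The difference of the responses passed for both genes: it was -0.29 for IGF2BP3 (SE 0.08, adjusted p = 0.00692) and 0.20 for IGF2BP1 (SE 0.07, adjusted p = 0.0405). The difference for IGF2BP1 was lost with library totals (adjusted p = 0.132), with length-scaled TPM (0.0698), with the replicate number as a block (0.0650), and without any 1 of 9 of the 16 libraries (0.0551 to 0.0913). That for IGF2BP3 was lost with length-scaled TPM (0.0546), and neither passed within the libraries without PTPRC reads, where the difference was 0.0533 for IGF2BP1 (adjusted p = 0.879) and -0.46 for IGF2BP3 (adjusted p = 0.131). The third paralog, IGF2BP2, had log2 fold changes of 0.01 in p53-Y220C cells (adjusted p = 0.823) and 0.04 in p53-null cells (adjusted p = 0.508).

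**Figure D3:**
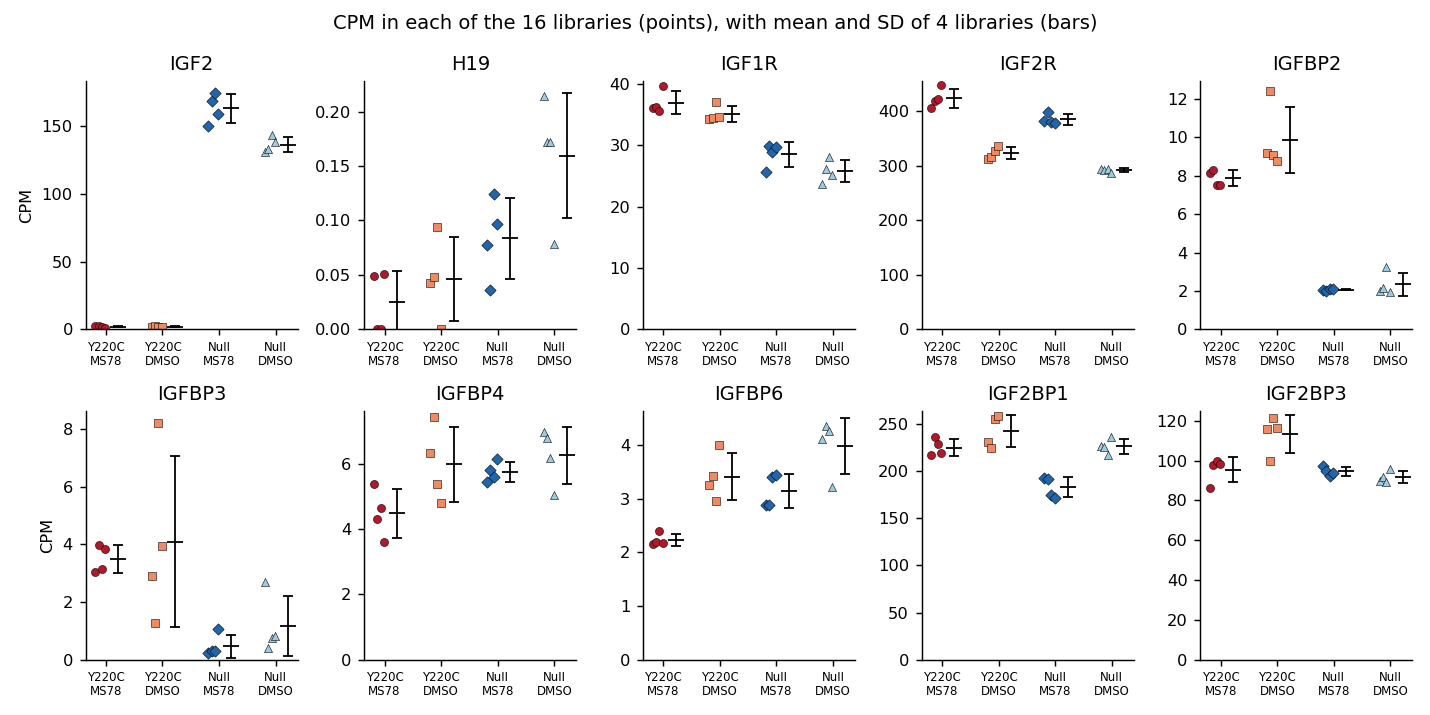
CPM of each gene in the 16 libraries, 1 panel per gene with an axis from 0, points for libraries and bars for the mean and SD of 4. IGF2R lies higher in the MS78 group of each line, IGF2BP1 is lowest in Null MS78, and the 4 points of IGFBP3 in Y220C DMSO run between 1.26 and 8.22 CPM.

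Of the 9 genes tested, MS78 changed 5 in p53-Y220C cells, with 1 higher and 4 lower, where 48.5% of all 15687 genes tested were called. In p53-null cells it changed 3, with 2 higher and 1 lower, where 28.1% of all genes were called. The difference of the responses passed for 2 of 9, where 26.8% of all genes were called, and these shares are near the background. The median log2 fold change over the 9 genes was -0.22 in p53-Y220C cells and -0.12 in p53-null cells, against -0.01 and 0.01 over all genes. Between the lines, 4 of the 9 were higher and 1 lower in every Y220C DMSO library than in every Null DMSO library, where 43.6% of genes did not overlap, and 5 were higher and 3 lower in the MS78 groups, where 56.4% did not. Since the choice of genes used this contrast, nothing is read from these counts.

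**Figure D4:**
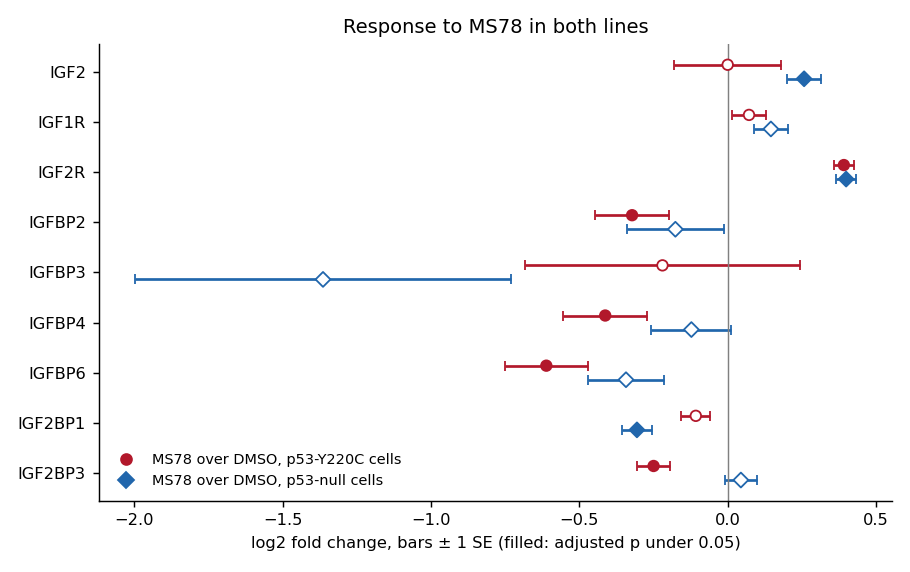
Log2 fold change of MS78 over DMSO in p53-Y220C cells (circles) and p53-null cells (diamonds) for the 9 tested genes, with bars of 1 SE and filled symbols for an adjusted p under 0.05. IGF2R is filled in both lines at 0.39 and 0.40, and the other filled symbols each stand in 1 line.

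The other genes of the IGF pathway were read from 8 lists holding 166 genes, of which 131 were tested. In p53-Y220C cells 46 rose and 28 fell with MS78, and in p53-null cells 33 rose and 13 fell, which is 56.5% and 35.1% of those tested, against the 48.5% (24.9% higher, 23.6% lower) and 28.1% (14.8% higher, 13.3% lower) of all genes. The lists were chosen with earlier results of these data known, so nothing is read from these shares. IGF1, INS, IGFBP1, IGFBP5 and IGFBP7 did not pass the filter on low counts.

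Among genes that free IGFs from their binding proteins or process them, 7 rose and 5 fell of 16 tested in p53-Y220C cells, and 10 rose and 1 fell in p53-null cells. STC1, a stanniocalcin that inhibits the IGFBP4 protease PAPPA, had 148 ± 6.92 CPM in Y220C MS78 and 88.9 ± 3.04 CPM in Y220C DMSO, and 158 ± 8.78 CPM in Null MS78 and 60.0 ± 3.50 CPM in Null DMSO. Its log2 fold changes were 0.74 (SE 0.05, adjusted p = 8.91e-11) and 1.40 (SE 0.05, adjusted p = 9.54e-15, edgeR). STC2, its paralog with the same target, moved the other way, by -0.20 in p53-Y220C cells (SE 0.06, adjusted p = 0.00870) and by -1.05 in p53-null cells (SE 0.06, adjusted p = 2.56e-11). The difference for STC2 was 0.85 (SE 0.08, adjusted p = 3.12e-07). The collagenase MMP1 rose by 1.12 in p53-Y220C cells and 1.83 in p53-null cells, and the plasminogen activator PLAT by 1.15 and 1.30 in the same order, all on the log2 scale.

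Among receptor adaptors and brakes, 5 rose and 2 fell of 14 tested in p53-Y220C cells, and 3 rose and none fell in p53-null cells. SOCS2, a feedback inhibitor of cytokine and growth hormone signalling, had 12.4 ± 1.45 CPM in Y220C MS78 and 5.47 ± 0.419 CPM in Y220C DMSO (log2 fold change 1.18, SE 0.11, adjusted p = 2.41e-08, edgeR). In p53-null cells the called genes rose by 0.14 to 0.26 on the log2 scale, in order the adaptor SHC1, the phosphatase PTPN1 and GIGYF2. IRS2, the second docking protein of the pathway, had 7.59 ± 0.723 CPM in Y220C MS78, 5.93 ± 0.608 CPM in Y220C DMSO, 0.454 ± 0.0491 CPM in Null MS78 and 0.329 ± 0.152 CPM in Null DMSO. Across the lines IRS1 was lower and IRS2 higher in every p53-Y220C library.

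Of the kinases and effectors of the PI3K, AKT, mTOR and FOXO branch, 11 rose and 3 fell of 24 tested in p53-Y220C cells, and 7 rose and 2 fell in p53-null cells. EIF4EBP1, the translation repressor that mTOR inactivates, fell in both lines, by 0.66 on the log2 scale in p53-Y220C cells (SE 0.05, adjusted p = 3.25e-10) and by 0.46 in p53-null cells (SE 0.05, adjusted p = 1.29e-07, edgeR). In p53-Y220C cells FOXO3, a transcription factor that AKT restrains, rose by 0.42 (SE 0.05) and AKT1 itself fell by 0.42 (SE 0.07). The regulatory subunit PIK3R3 rose in p53-null cells by 0.46 (SE 0.04, adjusted p = 1.71e-08).

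Of the regulators of IGF2 and H19 transcription, 4 rose and 9 fell of 17 tested in p53-Y220C cells, and 3 rose and 3 fell in p53-null cells. EGR1, an immediate early transcription factor, had 338 ± 13.8 CPM in Y220C MS78 and 27.3 ± 2.02 CPM in Y220C DMSO, and 27.0 ± 1.54 CPM in Null MS78 and 13.0 ± 1.54 CPM in Null DMSO. Its log2 fold change was 3.63 in p53-Y220C cells (SE 0.06, adjusted p = 1.40e-20) and 1.06 in p53-null cells (SE 0.07, adjusted p = 5.15e-10, edgeR), and the difference was 2.58 (SE 0.10, adjusted p = 8.88e-14). The maintenance methyltransferase DNMT1 fell by 0.60 in p53-Y220C cells and by 0.49 in p53-null cells on the log2 scale. Between the lines, CTCFL, the germline paralog of CTCF, had 2.16 ± 0.303 CPM in Y220C MS78 and 42.1 ± 2.02 CPM in Null MS78, and 3.09 ± 0.240 CPM in Y220C DMSO and 43.9 ± 2.71 CPM in Null DMSO. PLAG1, a zinc finger protein known to activate IGF2, had 43.8 ± 1.98 CPM in Y220C DMSO and 28.2 ± 2.51 CPM in Null DMSO.

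Of other imprinted genes, 9 rose and 3 fell of 33 tested in p53-Y220C cells, and 6 rose and 2 fell in p53-null cells. The retrotransposon-derived PEG10 had 1169.8 ± 35.0 CPM in Y220C MS78 and 582 ± 31.6 CPM in Y220C DMSO, and 1845 ± 67.8 CPM in Null MS78 and 915 ± 35.2 CPM in Null DMSO, with a log2 fold change of 1.01 (SE 0.04) in each line. CDKN1C, a cell cycle inhibitor in the neighbouring imprinted domain of the same chromosome, rose by 1.04 in p53-Y220C cells (SE 0.14, adjusted p = 3.88e-06) and by 1.31 in p53-null cells (SE 0.16, adjusted p = 1.97e-06, edgeR). PHLDA2, a growth restrainer of that domain, rose by 0.80 and TP73, a p53 relative, fell by 1.23 in p53-Y220C cells, and in p53-null cells PHLDA2 rose by 0.90 and TP73 fell by 0.61.

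Of known mRNA targets of IGF2BP1 and IGF2BP3, 9 rose and 7 fell of 21 tested in p53-Y220C cells, and 4 rose and 5 fell in p53-null cells. MYC, a transcription factor of cell growth, had 150 ± 1.29 CPM in Y220C MS78 and 86.1 ± 4.55 CPM in Y220C DMSO, and 82.6 ± 1.77 CPM in Null MS78 and 98.5 ± 8.90 CPM in Null DMSO. It rose by 0.80 in p53-Y220C cells (SE 0.05, adjusted p = 5.37e-11) and fell by 0.25 in p53-null cells (SE 0.05, adjusted p = 6.96e-04, edgeR), and the difference was 1.05 (SE 0.07, adjusted p = 1.40e-09). The proliferation gene MKI67 fell by 1.49 in p53-Y220C cells (SE 0.14) and the efflux pump ABCB1 rose by 1.31 (SE 0.07). In the let-7 and LIN28 axis, 4 rose and 2 fell of 14 tested in p53-Y220C cells, and 3 rose and 2 fell in p53-null cells. HMGA2, a let-7 target and chromatin protein, fell by 0.50 in p53-Y220C cells (SE 0.05, adjusted p = 2.96e-08), and the uridylyltransferase TUT7 rose there by 0.77 (SE 0.07). In the comparison of the lines, 45 of the 131 list genes were higher and 46 lower under MS78, where 30.7% of all genes were called higher and 31.2% lower (61.8% in all), and 39 were higher and 48 lower under DMSO, where 24.7% were called higher and 25.5% lower (50.2% in all), from which nothing is read.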

How the data were processed

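Poly(A) RNA-seq tables of 16 libraries were used. The members and gene lists were chosen with earlier results of these data known. Estimated counts per transcript were made by the authors and not normalized, per the file headers. The deposited TPM were scaled to effective length and a fixed sum per library, per the file headers. The other deposited columns hold transcript and effective lengths, per the file headers. Reads were examined with FastQC 0.11.8 and hg38 was used, per the submitters' processing notes. The sources used here do not give the quantifier, its annotation or its use of strand.

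Of 197653 transcripts per table, 193348 (97.82%) matched GENCODE 29 (GRCh38) by identifier. Their estimated counts were summed into 56865 genes and rounded to whole numbers, and unmatched transcripts with 0.278% to 0.325% of reads were left out. A second gene identifier with the symbol IGF2 had 0 reads. Depth was 20.3 M to 27.7 M reads per library, and a count of 0 allows up to 3 reads, which covers counting error only. The test was edgeR's quasi-likelihood F-test (edgeR 4.0.16, R 4.3.3, filterByExpr, TMM) on all 16 libraries together with 1 coefficient per group (12 residual degrees of freedom), and p-values were adjusted by Benjamini-Hochberg over the 15687 genes tested, with a threshold of 0.05. CPM values use TMM library sizes. The script was tested on simulated data. A check of the labels by 1 gene is not reported here. Comparisons were MS78 against DMSO in each line, the difference of these responses, and the lines within each treatment. The text names all members, genes within 500 kb of IGF2 that were tested, the 5 genes most like IGF2, and from each list up to 4 called genes with the largest changes and a mean of at least 1 CPM, with IRS1, IRS2, INSR and IGF2BP2 given for their role.

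Same-numbered samples were checked for pairing by the correlation of their deviations from the group means. These were -0.50 to -0.04 between MS78 and DMSO and -0.06 to 0.45 between the lines under DMSO, which pairs nothing. Between the lines under MS78 all 4 were over 0.1 (0.15 to 0.53), so the numbers pair those groups by the rule used. The members have no test there, and with the block the list genes called were 44 higher and 46 lower. Alternatives were DESeq2 1.42.0, other scalings, filters, length-scaled TPM, INS-IGF2 reads added to IGF2, single libraries left out, a replicate block and the PTPRC sets.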

Additional observations from a re-analysis of the deposited data

Results flagged for a closer look

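In 8 of 40 groups of 4 libraries, 1 library stood apart from the other 3 by more than Dixon's 95% critical value. Chance gives about 1 in 20. The share of such groups over all genes was not computed, so nothing particular to these genes is read from the count. IGF1R had 39.7 CPM in Y220C MS78 replicate 4, against 35.6 to 36.2 CPM in the others of its group, and 37.0 CPM in Y220C DMSO replicate 3, against 34.3 to 34.7 CPM. IGF2R had 399.9 CPM in Null MS78 replicate 2, against 379 to 382 CPM in the others. IGFBP2 had 12.4 CPM in Y220C DMSO replicate 2, against 8.80 to 9.17 CPM, and 3.23 CPM in Null DMSO replicate 3, against 1.96 to 2.16 CPM. IGFBP3 had 1.07 CPM (22 reads) in Null MS78 replicate 4, against 0.233 to 0.290 CPM. IGFBP6 had 2.40 CPM (46 reads) in Y220C MS78 replicate 3, against 2.16 to 2.19 CPM. IGF2BP3 had 86.0 CPM in Y220C MS78 replicate 1, the low end of its group, against 97.9 to 99.9 CPM.

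The MS78 response differed between the lines by a test of the difference itself for both mRNA-binding proteins. It was 0.20 for IGF2BP1 (log2, p53-Y220C response minus p53-null response, adjusted p = 0.0405, edgeR), with 4 of 4 Null MS78 libraries under all Null DMSO libraries. That call was lost with the replicate block (adjusted p = 0.0650), library totals (0.132), length-scaled TPM (0.0698), within the libraries without PTPRC reads (0.879) and without any 1 of 9 of the 16 libraries. It was -0.29 for IGF2BP3 (adjusted p = 0.00692, edgeR), which did not pass within the libraries without PTPRC reads (0.131) or on length-scaled TPM (0.0546).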

How the results depend on the processing

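Of 1260 recomputed log2 fold changes over 45 results, 1169 kept their direction and side of the threshold (or moved by less than 1 SD where no test was made), 34 lost the threshold, 14 gained it, 11 moved and 32 changed sign. In 1 setting INS-IGF2 reads were added to IGF2, and since INS-IGF2 had 0 reads its values were kept by construction. The cause of the changes was not tested, except that sets of libraries with or without PTPRC reads hold fewer samples.

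IGF2 in p53-Y220C cells, 0.00 on 25 to 51 reads, became -0.0934 with library totals, -0.0111 with no filter, -0.00690 with at least 1 CPM in 4 libraries, -0.0321 with length-scaled TPM, -0.00823 with only the groups compared, -0.000776 with the replicate block, -0.00573 with PTPRC reads as a term and -0.0333 within libraries with PTPRC reads, and -0.13 to 0.16 without single libraries. IGF1R turned to -0.0209 in p53-Y220C cells with library totals and to 0.0645 in the difference of responses with length-scaled TPM. Within libraries without PTPRC reads IGF1R turned to -0.0486 in p53-null cells, and the differences turned to 0.18 for IGF2, 0.0814 for IGF1R and 0.0302 for IGFBP4. Within libraries with PTPRC reads IGFBP2 turned to 0.0243 in p53-null cells, IGFBP3 to 0.34 in p53-Y220C cells and the difference for IGF2R to 0.0901. Without single libraries IGFBP2 ran from -0.259 to 0.0106 in p53-null cells (without Null DMSO replicate 3), IGFBP3 from -0.52 to 0.37 in p53-Y220C cells (without Y220C DMSO replicate 3) and the difference for IGF2R from -0.0373 to 0.0129. IGF2 between the lines under MS78 was -5.90 within libraries without PTPRC reads.

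Members higher in p53-null cells were 1 with length-scaled TPM and 1 within libraries without PTPRC reads. Members lower there were 2 with library totals, 2 with no filter, 2 within libraries with PTPRC reads, 0 within those without, and 1 to 2 without single libraries. Members lower in p53-Y220C cells were 2 within libraries with PTPRC reads, 1 within those without, and 2 to 4 without single libraries. Members with a higher response in p53-Y220C cells were 0 with library totals, 0 with length-scaled TPM, 0 with the replicate block, 2 within libraries with PTPRC reads, 0 within those without, and 0 to 1 without single libraries. Members with a lower response were 0 with length-scaled TPM and 0 within libraries without PTPRC reads. The block changed no other call of a member.

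For list genes, library totals gave 20 lower in p53-null cells and length-scaled TPM gave 16 lower in the difference of responses (25 in the reported fit). Within libraries with PTPRC reads list genes were 21 higher in p53-null cells, 12 lower in the difference, and 19 higher and 30 lower between the lines under DMSO. Within libraries without PTPRC reads they were 13 higher and 5 lower in p53-null cells, 22 higher and 15 lower in p53-Y220C cells, 5 higher and 2 lower in the difference, and 23 higher between the lines under MS78. Of all genes, length-scaled TPM called 2863 in p53-null cells and 2748 in the difference. Libraries with PTPRC reads called 2346 in p53-null cells, 1870 in the difference and 3817 between the lines under DMSO, and those without called 1070 in p53-null cells, 3490 in p53-Y220C cells, 411 in the difference and 4184 between the lines under MS78. Reads were few for IGF2 in p53-Y220C cells (25 to 51 per library) and for H19 in all groups (0 to 5). The binding proteins had 6 to 257 reads per library, and the part of depth in their changes was not tested.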
